A study of Mus musculus with 4 samples.

Results

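The BCL2 family genes that set survival and death in lymphocytes were examined in natural killer T (NKT) cells of the small intestine lamina propria (SI-LP). The 10 genes, taken by name from the 25239 genes of the count table, were Bcl2, Mcl1, Bcl2l1, Bcl2a1b and Bcl2a1d of the pro-survival class, Bcl2l11, Bbc3 and Pmaip1 of the BH3-only class, and the effectors Bax and Bak1. All 10 were in the table and passed the filter on low counts of at least 10 counts in 2 libraries, as did 11689 genes in all. NKT cells are T cells that recognise lipids presented by the MHC class I-like molecule CD1d. They were sorted from the lamina propria of young adult wild-type C57BL/6Jax mice of both sexes as live cells positive for TCRβ and a PBS57-loaded CD1d tetramer and negative for B220, CD11b, CD11c and CD8. The mice received a nanobody against ARTC2, a surface enzyme that can kill lymphocytes during isolation, before tissue was taken. There were 4 libraries of this 1 group. The sample titles mark replicates 3 and 4 as First and the other 2 as Second. These are called the first and the second experiment here, a word the titles do not use. No untreated or other group entered the comparisons, so every difference below is between libraries of the same condition. The labels do not say that the 4 libraries came from separate animals, so the p-values measure only the spread between these libraries, which may be technical. NKT cells of other organs and the other cells of the study were not analysed here.

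The mitochondrial route to apoptosis is decided by binding between members of this family. The effectors BAX and BAK permeabilise the outer mitochondrial membrane and release cytochrome c, the pro-survival proteins hold them and the BH3-only proteins in check, and the BH3-only proteins are the sensors that free or activate the effectors. In T cells BCL2 is maintained by signals through the IL-7 and IL-15 receptors, the A1 proteins are induced by antigen receptor and NF-kB signalling, and BIM, the product of Bcl2l11, is the main trigger of death when cytokine is withdrawn. The family acts largely by protein abundance and binding, neither of which RNA counts measure.

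The A1 genes of the mouse are recent copies of each other, and their sequences limit how far their counts can be told apart. The coding sequences of Bcl2a1b, Bcl2a1d and Bcl2a1a are each 516 bases long, and Bcl2a1b and Bcl2a1d differed at 6 positions, an identity of 98.8%. Counted from 1 at the A of the start codon, with the Bcl2a1b base first and the Bcl2a1d base last, the differences were G4T, T48C, A94C, G312A, C381G and T490A. Bcl2a1b and Bcl2a1a differed at 11 positions, an identity of 97.9%. The first 120 coding bases of the 3 genes are shown in genome build GRCm39 with the positions at which any of the 3 differ in capitals, because 3 of the 6 differences between Bcl2a1b and Bcl2a1d fall in them. They lie at chr9:89081413-89081532 on the plus strand for Bcl2a1b, chr9:88613653-88613772 on the minus strand for Bcl2a1d and chr9:88839104-88839223 on the plus strand for Bcl2a1a.
Bcl2a1b: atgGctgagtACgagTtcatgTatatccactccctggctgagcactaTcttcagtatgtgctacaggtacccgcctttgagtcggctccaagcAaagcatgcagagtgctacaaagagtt
Bcl2a1d: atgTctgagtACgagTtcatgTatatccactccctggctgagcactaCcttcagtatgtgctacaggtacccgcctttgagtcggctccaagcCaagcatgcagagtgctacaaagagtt
Bcl2a1a: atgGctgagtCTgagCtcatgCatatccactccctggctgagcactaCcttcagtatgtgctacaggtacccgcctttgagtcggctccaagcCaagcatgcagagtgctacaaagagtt
Of the 726 windows of 101 bases, the length of a read, along the Bcl2a1b transcript, 221 or 30.4% also occurred in Bcl2a1d and 117 or 16.1% in Bcl2a1a. Of the 763 windows along the Bcl2a1d transcript, 310 or 40.6% also occurred in Bcl2a1a. A single read from such a window cannot be assigned by its letters, and the values of Bcl2a1b and Bcl2a1d are therefore uncertain in their split. Their summed counts do not depend on that split, but can depend on reads shared with Bcl2a1a. A sum corrected for length also depends on it through their lengths of 764 and 796 bases.

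Promoters from RefSeq, in build GRCm38.p6, ran from 250 bases before to 50 bases after each transcript start and matched 14 promoters of 9 of the 10 genes, without Pmaip1. The FOXO core motif GTAAACA, searched on both strands, was in 3.65% of the 32851 promoters in the table and in 2 promoters of members, 1 of Bcl2l11 and 1 of Bbc3. FOXO factors are known to drive both genes in lymphocytes deprived of cytokine, so these promoters are shown with the motif in capitals. The Bcl2l11 promoter is chr2:128125788-128126087 on the plus strand, with the match starting 227 bases before the transcript start. The Bbc3 promoter is chr7:16310011-16310310 on the plus strand, with the match starting 167 bases before it and lying on the opposite strand.
Bcl2l11: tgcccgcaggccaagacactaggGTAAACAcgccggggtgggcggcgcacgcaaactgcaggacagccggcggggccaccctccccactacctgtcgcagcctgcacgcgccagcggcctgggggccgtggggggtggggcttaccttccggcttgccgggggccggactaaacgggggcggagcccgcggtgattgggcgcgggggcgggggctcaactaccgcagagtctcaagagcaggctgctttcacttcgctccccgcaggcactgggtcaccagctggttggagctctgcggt
Bbc3: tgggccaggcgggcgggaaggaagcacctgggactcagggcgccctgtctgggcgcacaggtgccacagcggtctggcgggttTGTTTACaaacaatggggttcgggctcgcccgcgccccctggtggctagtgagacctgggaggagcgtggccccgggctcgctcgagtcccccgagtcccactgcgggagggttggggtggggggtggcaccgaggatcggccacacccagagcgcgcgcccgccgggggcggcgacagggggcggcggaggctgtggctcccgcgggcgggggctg
The STAT core TTCNNNGAA was in 8.30% of all promoters and in 0 of the 14, and the NF-kB motif was in 4.51% of all and in promoters of Bbc3 and Bcl2l1. A match is a description of letters and no sign of binding. The 2 genes that shared the FOXO core were far apart in level, at a mean of 101 transcripts-per-million (TPM, which corrects for gene length) for Bcl2l11 and 3.76 TPM for Bbc3.

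The libraries held between 3882803 and 8732858 counts assigned to genes, so that 3 counts, the floor used here for a gene at 0, corresponded to 0.344 to 0.773 counts-per-million (CPM). The 10 genes took 0.105% to 0.233% of the counts. Ribosomal Rn45s took 7.36% to 28.1%. T cell markers summed to 0.252%, 0.118%, 0.286% and 0.140% of counts in replicates 1, 2, 3 and 4, and 5 genes of NKT cells (Zbtb16, Tbx21, Klrb1c, Nkg7 and Xcl1) ranged from 0.0418% to 0.145%. Epithelial markers summed to 0.105%, 1.03%, 0.0229% and 3.01% in the same order, higher in replicate 2 than 1 and in replicate 4 than 3. Plasma cell markers were at 0.671% and 0.821% in the second experiment and at 0.000547% and 0.0261% in the first. Myeloid markers were at most 0.0132% and CD8 T cell markers at most 0.000149%, and S100a8 and S100a9 were at 0 in all 4. All 7 T cell markers and these 5 NKT cell genes, of which Zbtb16 encodes the lineage factor PLZF and is not specific to the NKT1 subset, had counts in every library. In bulk RNA, fewer NKT cells among those sorted and less RNA of a gene per cell cannot be told apart.

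The pro-survival genes are given first, library by library, in CPM scaled with TMM factors, which does not correct for gene length. Bcl2, the founding member, lies at chr1:106538176-106714290 on the minus strand of GRCm38 and had 699, 234, 394 and 235 CPM in replicates 1, 2, 3 and 4, a mean of 390.5 ± 219 (SD, n = 4). Replicate 1 was the highest and replicates 2 and 4 were close to each other at the low end. Mcl1, a short-lived protein that T cells need throughout life, lies at chr3:95658721-95663178 on the plus strand and had 633, 494, 398 and 298 CPM, a mean of 456 ± 143. It varied least of the 10 on this scale, with a coefficient of variation of 31.3%. Per 100 T cell marker counts it varied by 4.42-fold, against 1.40-fold for Bcl2a1b. Bcl2l1, which encodes BCL-XL, lies at chr2:152758732-152831728 on the minus strand and had 39.2, 17.2, 70.3 and 39.4 CPM, a mean of 41.5 ± 21.8. Replicate 3 was the highest library and replicate 2 the lowest, 4.08-fold apart.

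The A1 genes, which share part of their reads and are not independent, had a similar pattern across the libraries. Bcl2a1b lies at chr9:89199273-89207838 on the plus strand of GRCm38 and had 287, 80.1, 288 and 136 CPM in replicates 1 to 4, a mean of 198 ± 106. Bcl2a1d lies at chr9:88723288-88731850 on the minus strand and had 177, 36.5, 182 and 72.3 CPM, a mean of 117 ± 73.5. For both, replicates 1 and 3 were close to each other and above replicates 2 and 4. The T cell marker share was also higher in replicates 1 and 3, at 0.252% and 0.286%, than in replicates 2 and 4, at 0.118% and 0.140%. Its part in this pattern was not tested. Bcl2a1b was above Bcl2a1d in every library, by 1.70-fold, 2.29-fold, 1.65-fold and 1.96-fold in TPM. Of the counts given to Bcl2a1b, Bcl2a1d and Bcl2a1a together, Bcl2a1b took 60.5% to 67.8%, Bcl2a1d 30.9% to 38.2% and Bcl2a1a 0.360% to 1.38%.

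By the coefficient of variation of TMM-scaled CPM, the BH3-only genes differed most between libraries. Bcl2l11, encoding BIM, lies at chr2:128126038-128162547 on the plus strand and had 421, 131, 438 and 59.2 CPM in replicates 1 to 4, a mean of 262 ± 195. Replicates 1 and 3 were again alike, and the highest library was 7.40-fold above the lowest, replicate 4, in the largest coefficient of variation among the 10, 74.5%. Bbc3, encoding the p53 target PUMA, lies at chr7:16309583-16318334 on the plus strand and had 0.277, 2.20, 4.69 and 4.27 CPM, a mean of 2.86 ± 2.03. Its 2 counts in replicate 1 gave a 95% Wilson interval of 0.0758 to 1.01 CPM by library size alone, which covers counting error only. Pmaip1, encoding NOXA, the BH3-only partner of MCL1, had 34.6, 42.8, 0.893 and 26.8 CPM, a mean of 26.3 ± 18.1. Replicate 3 stood apart, with 4 counts, which by library size alone are 0.729 CPM with a 95% Wilson interval of 0.283 to 1.87, and the highest library was 47.9-fold above it.

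Both effectors were present in all libraries. Bax lies at chr7:45461695-45466898 on the minus strand and had 11.6, 12.4, 18.1 and 28.4 CPM in replicates 1 to 4, a mean of 17.6 ± 7.72. Bak1 lies at chr17:27019812-27028627 on the minus strand and had 29.5, 59.4, 112 and 122 CPM, a mean of 80.8 ± 43.9. In both genes the 2 libraries of the first experiment were above the 2 of the second, but this depended on the scaling. By library size alone replicates 2 and 3 were both at 14.8 CPM for Bax. Per 100 T cell marker counts, replicate 2 was above replicate 3 for both genes, at 6.04 against 3.21 for Bak1 and 1.26 against 0.517 for Bax. Counting error was a small part of the spread: in the lowest library of each gene it was 2.90% to 11.1% of the level for 8 of the 10, while Bbc3 and Pmaip1 had only 2 and 4 counts in theirs.

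**Figure D1:**
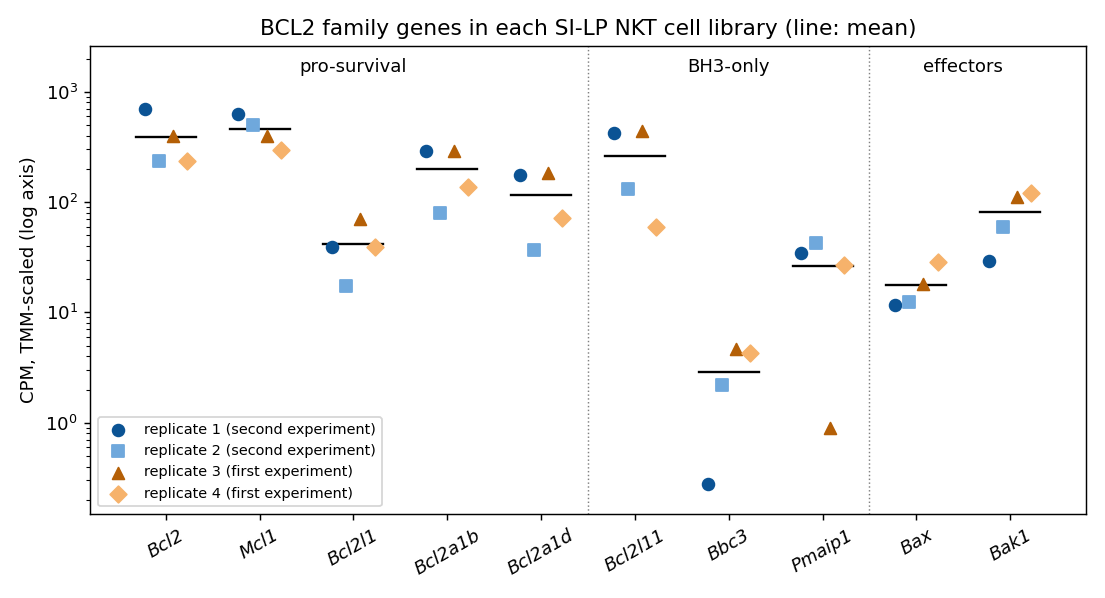
The plot shows each of the 10 genes on the x axis and its TMM-scaled CPM on a log y axis, with a point for each of the 4 libraries and a line at the mean. Bcl2l11 spans 59.2 to 438 CPM and Pmaip1 0.893 to 42.8 CPM, while Mcl1 stays between 298 and 633 CPM.

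Levels between genes were compared per length, as TPM computed from the deposited counts and exon lengths. The order by mean TPM was Bcl2a1b (706 ± 386), Bcl2a1d (398 ± 255), Mcl1 (369 ± 151), Bcl2 (149 ± 94.0), Bak1 (105 ± 48.0), Bcl2l11 (101 ± 74.7), Bax (54.0 ± 18.4), Bcl2l1 (33.9 ± 15.3), Pmaip1 (28.7 ± 21.1) and Bbc3 (3.76 ± 2.45), each ± SD with n = 4. Among the 11689 tested genes the members sat at a median percentile of 80.1, from 18.5 for Bbc3 to 98.0 for Bcl2a1b. The length of 764 bases of Bcl2a1b against 7349 bases of Bcl2 lifted the A1 genes, since by CPM Mcl1 ranked 1, Bcl2 2, Bcl2l11 3 and Bcl2a1b 4. Mcl1 kept to a narrow band of percentiles, 95.6 to 97.7 across the libraries, while Bcl2l11 ran from 50.5 to 92.3 and Pmaip1 from 13.6 to 68.5.

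**Figure D2:**
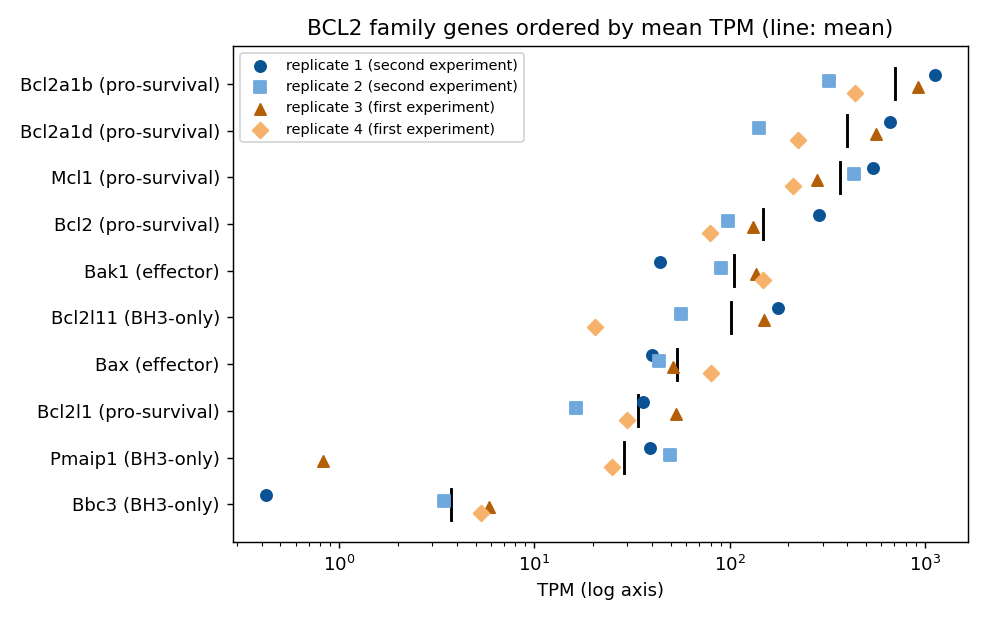
The plot gives TPM per library on a log axis with the genes in the order of their mean TPM. The A1 genes and Mcl1 lead, Bbc3 is last at 3.76 TPM, and the points of most neighbours overlap.

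Of the 9 neighbouring pairs in that order, only 2 held the same order in every library. Bcl2a1b was above Bcl2a1d by 0.91 ± 0.22 on the log2 scale, an order that rests on the uncertain split of their shared reads, and Mcl1 was above Bcl2 by 1.40 ± 0.54 (SD, n = 4). By an exact sign-flip permutation test both had p = 0.125, the smallest that 4 libraries allow, and 0.5625 after Benjamini-Hochberg adjustment over the 9 pairs. For the other 7 pairs the mean difference was no larger than its SD, so their order is not separated at this number of libraries.

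Summed over TPM, the pro-survival genes outweighed the death genes in every library. The 5 pro-survival genes summed to 2664, 1014, 1955 and 987 TPM in replicates 1 to 4, and the 5 death genes to 301, 244, 345 and 281 TPM. The ratio was 8.85-fold, 4.16-fold, 5.66-fold and 3.51-fold, a mean of 2.38 ± 0.59 on the log2 scale. The death sum had a mean of 293 ± 42.4, while the survival sum had a mean of 1655 ± 809. The make-up of both sums moved between libraries. Bcl2l11 made 58.9%, 23.2%, 43.7% and 7.31% of the death sum, and the A1 pair 67.4%, 45.7%, 76.2% and 67.5% of the survival sum. Mcl1 made 20.5%, 43.01%, 14.4% and 21.4% of the survival sum, highest in replicate 2, where the A1 share was lowest. Without the A1 pair the log2 ratio of survival over death was 0.83, and with CPM in place of TPM 1.65.

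**Figure D3:**
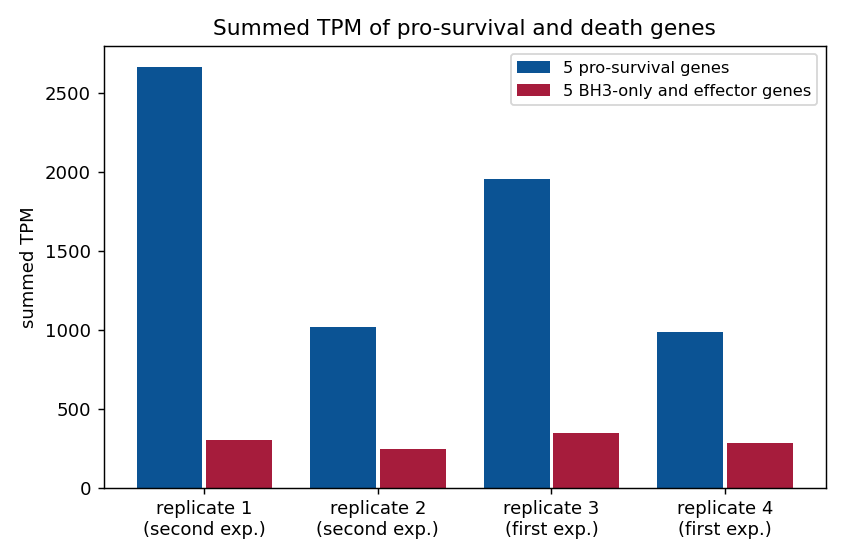
Bars from 0 give the summed TPM of the 5 pro-survival and the 5 death genes in each library. The survival bar ranges from 987 to 2664 TPM and the death bar from 244 to 345 TPM.

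Single pairs of binding partners varied more than the sums. Bcl2l11 over Bcl2 in TPM was 0.620, 0.578, 1.15 and 0.259, a log2 mean of -0.81 ± 0.88. Pmaip1 over Mcl1 was 0.0719, 0.114, 0.00295 and 0.118, a log2 mean of -4.60 ± 2.56, with replicate 3 far below the other 3.

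The 2 experiments did not differ in the level of any of the 10 genes past the test. By edgeR's quasi-likelihood test of the second against the first experiment, 0 of the 10 had an adjusted p under 0.05, and 0 of all 11689 tested genes did (0%), against 41 by DESeq2, none of them a member. At an unadjusted p under 0.05 the members were also 0 of 10, against 248 genes or 2.12% of all. The largest difference by p was Bak1, at -1.40 ± 0.67 (SE) on the log2 scale, with an unadjusted edgeR p of 0.078 and an adjusted p of 0.9997. It was -0.75 with T cell marker scaling and -2.01 without replicate 2, a fit that leaves 1 library in the second experiment. Of the other death genes, Bax was at -0.95 ± 1.10, Bbc3 at -1.83 ± 2.08, Pmaip1 at 1.48 ± 1.47 and Bcl2l11 at 0.15 ± 1.02. The pro-survival genes were at 0.57 ± 0.72 for Bcl2, 0.70 ± 0.58 for Mcl1, -0.96 ± 0.85 for Bcl2l1, -0.21 ± 0.78 for Bcl2a1b and -0.25 ± 0.89 for Bcl2a1d. Every member had the same adjusted edgeR p as Bak1. The common biological coefficient of variation was 0.976. Leaving out replicate 1 turned the sign for Bcl2, leaving out replicate 1 or 4 did so for Bcl2l11, and leaving out replicate 2 or 3 did so for both A1 genes. The 2 libraries of the second experiment lay above both of the first for Mcl1 and Pmaip1, which is 2 of 10 against 14.7% of all genes. The first lay above the second for Bcl2l1, Bbc3, Bax and Bak1, 4 of 10 against 14.4% of all, and the other 4 overlapped. These counts are for TMM scaling. Relative to the T cell marker counts, Bbc3, Pmaip1, Bax, Bak1 and the A1 genes overlapped. Bcl2, Mcl1 and Bcl2l11 were then higher in both libraries of the second experiment, and Bcl2l1 in both of the first. The share of all genes on that scale was not computed, so these members cannot be set against all genes. The median log2 difference of all genes on that scale was 0.51. With TMM scaling the median of the members was -0.23 on the log2 scale, against 0.03 for all genes.

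Within each experiment, replicates 4 and 2 were the libraries with more epithelial and fewer T cell marker counts, and the members were set against these pairs. On the log2 CPM scale with a prior count of 2, Bcl2l11 had a difference of -2.88 for replicate 4 minus 3 and of -1.68 for replicate 2 minus 1. Bcl2a1b was at -1.08 and -1.84, and Bcl2a1d at -1.33 and -2.26. These 3 of the 10, of which the A1 genes share reads and are not independent, were lower by over 1 in both pairs, against 8.08% of all genes, and 0 of 10 were higher by over 1 in both, against 19.0%. Counting any amount, 6 of the 10 were lower in both pairs, namely the 5 pro-survival genes and Bcl2l11, against 29.9% of all genes. Pmaip1, Bax and Bak1 were higher in both, 3 of 10 against 35.4% of all, and Bbc3 went both ways, at -0.13 and 2.10. Bcl2 was at -0.74 and -1.58, Bcl2l1 at -0.83 and -1.17, and Mcl1, the smallest of these, at -0.42 and -0.36. Pmaip1 was at 4.50 and 0.30, Bak1 at 0.12 and 1.001, and Bax at 0.64 and 0.08. The first of the Pmaip1 values rests on the 4 counts of replicate 3.

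The members' medians were -0.58 and -0.76 in the 2 pairs, beside 0.08 and 0.13 for all genes and -1.37 and -1.03 for the T cell markers. Epithelial markers had medians of 5.58 and 2.79, with 16 of 21 higher by over 1 in both. Scaling the libraries to the T cell markers moved the median of all genes to 1.40 and 1.46, and then 4 of the members, Bbc3, Pmaip1, Bax and Bak1, were higher by over 1 in both and 0 were lower, against 43.4% and 1.11% of all genes. With library size alone, Bcl2l11 was the 1 member lower by over 1 in both, against 4.77% of all genes. The part of the epithelial and T cell content in these differences was not tested. Per 100 T cell marker counts, Bcl2a1b was at 11.4, 8.15, 8.24 and 9.96 in replicates 1 to 4, a range of 1.40-fold. Bcl2l11 was at 16.7, 13.3, 12.5 and 4.33 on that scale, and Pmaip1 at 1.37, 4.35, 0.0255 and 1.96, a range of 171-fold. Mcl1 on that scale was at 25.1, 50.3, 11.4 and 21.8 and Bak1 at 1.17, 6.04, 3.21 and 8.91, both higher in replicates 2 and 4 than in the other library of the same experiment.

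**Figure D4:**
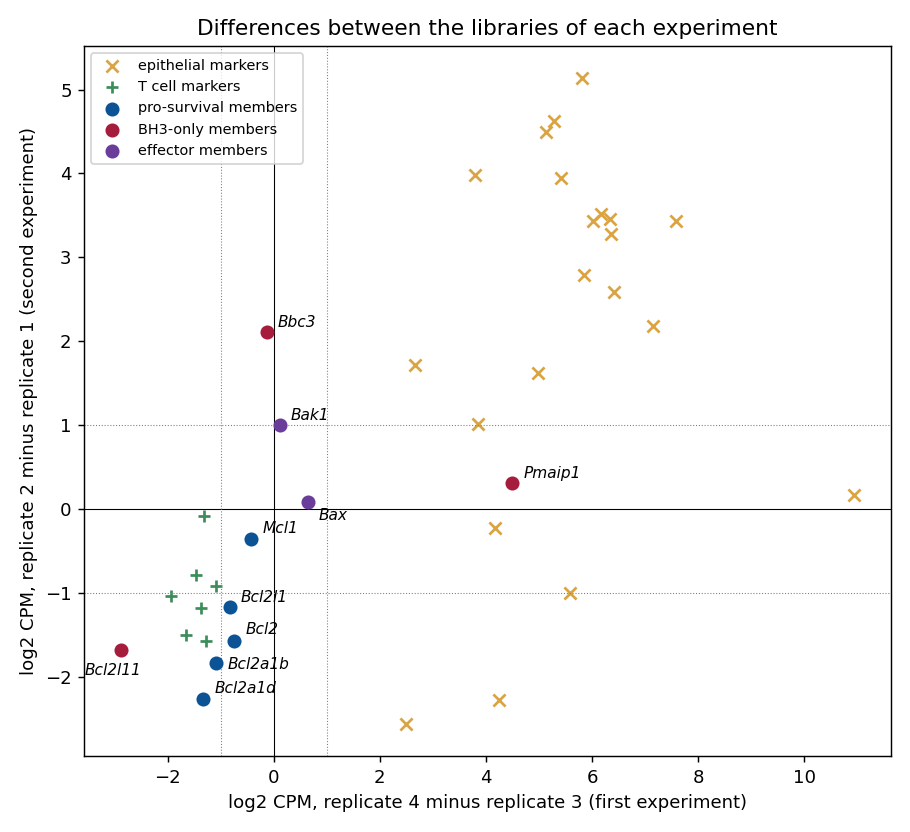
Each point is a gene, with the log2 CPM difference of replicate 4 minus 3 on the x axis and of replicate 2 minus 1 on the y axis, for the 10 genes and for T cell and epithelial markers. Bcl2l11 lies at -2.88 and -1.68. On the y axis Bcl2l11, Bcl2a1b, at -1.84, and Bcl2a1d, at -2.26, lie below the lowest T cell marker, Cd3e, at -1.58. The 5 NKT cell genes, which are not plotted, had a median of -1.80 on that axis and -1.13 on the x axis. On the x axis Bcl2a1d, at -1.33, lies among the T cell markers, and Bcl2a1b, at -1.08, is level with the highest of them, Lat. Of the epithelial markers 17 of 21 lie to the upper right, while Fabp1, Apoa1, Apoa4 and Chga are negative on the y axis.

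Of the 14 other BCL2 family genes, all were in the table and 11 passed the filter. Bcl2l10 and Hrk were at 0 counts in all libraries, and Bcl2a1c, another A1 copy, had 5, 0, 1 and 0 counts in replicates 1 to 4. Bcl2l13, a mitochondrial member, was the highest by mean TPM of the 11, and had 87.4, 65.6, 78.4 and 43.4 CPM, a mean of 68.7 ± 19.1. Bcl2l2, which encodes the pro-survival BCL-W, had 10.4, 67.7, 1.56 and 18.6 CPM. The BH3-only genes Bmf, Bad and Bid had means of 13.2 ± 9.08, 7.50 ± 10.9 and 2.22 ± 1.92 CPM. Bik had 0, 1, 15 and 12 counts, Bok, an effector relative, 0, 16, 0 and 27, Bcl2l12 0, 0, 33 and 21, and Bcl2l14 0, 24, 0 and 60. Bcl2l15 had 0.97, 1.05, 5.36 and 36.1 CPM and Bcl2a1a 3.74, 1.63, 6.25 and 0.753 CPM. By edgeR's test of the experiments, 0 of the 11 passed at an adjusted p under 0.05 and 2, Bcl2l12 and Bcl2l15, at an unadjusted p under 0.05, against 2.12% of all genes. Within the experiments, 5 of the 11 were higher by over 1 log2 unit in replicates 4 and 2, against 19.0% of all genes, and 1, Bcl2a1a, was lower, against 8.08%. With T cell marker scaling 43.4% of all genes were higher in both. Reads of Bcl2a1a and Bcl2a1c can be shared with the other A1 genes, so their low counts are uncertain.

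The receptors and factors that act upstream of the family had the highest median percentile by TPM of the 3 pathway lists, at 85.2. By mean TPM the highest of these 10, given here in CPM, were Il2rb, the shared β chain of the IL-2 and IL-15 receptors, at 1676 ± 1158, Il2rg, the common γ chain, at 684 ± 437, and Trp53, at 258 ± 88.4. The lowest were Il15ra, at 8.46 ± 6.14, Akt1, at 31.8 ± 11.4, and Stat5a, at 62.7 ± 28.7. Foxo1 was at 499, 169.7, 279 and 185 CPM in replicates 1 to 4, and Foxo3 had a mean of 96.4 ± 41.7 CPM. None of the 10 passed edgeR's test of the experiments at an adjusted p under 0.05, against 0% of all genes. At an unadjusted p under 0.05 none did either, against 2.12% of all. Il7r, Il2rb and Il2rg, 3 of the 10, were lower by over 1 log2 unit in replicates 4 and 2, against 8.08% of all genes. Of the T cell markers 4 of 7 were lower in the same way, and with T cell marker scaling 1.11% of all genes were.

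Downstream, the 13 caspases and regulators had a median percentile of 64.3. The highest by TPM were Vdac2, an outer membrane channel that binds BAK, at 190.4 ± 24.5 CPM, Birc3, at 209 ± 159, and Birc2, at 95.5 ± 51.3, the last 2 encoding inhibitors of apoptosis. Vdac2 varied by 1.28-fold between the highest and lowest library. The lowest were Casp9, the initiator caspase of this route, at 5.15 ± 3.58 CPM, Birc5, at 11.9 ± 12.8, and Htra2, at 8.38 ± 8.63. Apaf1, the scaffold on which caspase-9 is activated, was at 91.1 ± 12.5 CPM. The 9 death receptor genes had a median percentile of 69.5, led by Fasl, at 225 ± 130.3 CPM, Casp8, at 193 ± 29.4, and Tnfrsf1a, at 127 ± 79.8. Tradd was at 3.54 ± 3.16 CPM, Ripk1 at 23.2 ± 12.2 and Fas at 11.5 ± 9.61. Of these 22 genes 0 passed the edgeR test of the experiments, at an adjusted or an unadjusted p under 0.05. Of all genes 0% and 2.12% did, so few of the 22 could have been called by that share.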

How the data were processed

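RNA was measured in 4 libraries of sorted SI-LP NKT cells. Per the labels, they were made with the Nugen Ovation ultralow kit and sequenced as paired reads of 101 bases, and the instrument differs between the labels and the methods. The deposited file holds raw counts per gene, made by the authors with featureCounts 1.6.4 over exons by gene, counting primary alignments only, with no strand option set, so antisense reads are counted with the gene and multi-mapped reads of the A1 genes at 1 place. The header names an mm10 annotation, and coordinates are printed as GRCm38 from the file, while the A1 sequences are from GRCm39. The deposited lengths are exon lengths, in bases. There were 2 more library columns that the labels given here do not cover, and they were not used. All 10 members' exons overlap 0 other genes.

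Counts were kept for genes with at least 10 counts in 2 libraries, scaled with TMM, and compared between the experiments with edgeR 4.0.16 (quasi-likelihood, R 4.3.3), with DESeq2 1.42.0 as an alternative. Log2 CPM used a prior count of 2 and TPM used the deposited lengths. Adjustment was by Benjamini-Hochberg, at 0.05. The scripts were tested on data simulated with far less spread between libraries than these have. That test does not show which changes can be found here. The named genes were all 10 members, all other BCL2 family genes, and the 3 highest and 3 lowest by mean TPM of the other lists, with Foxo1, Foxo3 and Apaf1 added after their values were seen. The members and lists were chosen with earlier results of these data known. Alternatives were other scalings, filters, tools and the leaving out of each library. The p-values and intervals cover the spread of these libraries and counting error only.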

Additional observations from a re-analysis of the deposited data

Results flagged for a closer look

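Of 43 quantities examined over the 4 libraries, 3 had 1 library whose gap to the nearest of the others exceeded Dixon's 95% critical value, and chance gives about 2.15. Replicate 4 stood apart for the CPM of Bcl2l14, with a gap of 0.847 of the range, and for the CPM of Bcl2l15, with a gap of 0.875. Replicate 3 stood apart for the log2 ratio of Pmaip1 over Mcl1, with a gap of 0.865. Their values are 0, 2.30, 0 and 15.1 CPM in replicates 1 to 4 for Bcl2l14, and 0.97, 1.05, 5.36 and 36.1 CPM for Bcl2l15. Replicate 4 also had the highest epithelial marker share, 3.01% of counts, whose part in these values was not tested. The log2 ratio of Pmaip1 over Mcl1 was -3.80, -3.14, -8.41 and -3.08, and rests on 4 counts of Pmaip1 in replicate 3.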

How the results depend on the processing

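No paired analysis was possible because a single condition was measured, so no replicate number recurs across groups. Members called at an adjusted p under 0.05 were 0 under every alternative, while genes called over all were 0 in the reported edgeR test, 41 by DESeq2, 60 with no filter on low counts, and 0 to 7 with each library left out (7 without replicate 3 and 6 without replicate 4). Leaving out replicate 2 put Bak1 at -2.01 on the log2 scale, and leaving out replicate 4 put Pmaip1 at 5.43. Each of these fits has only 1 library in an experiment. The log2 difference of the second from the first experiment changed sign for Bcl2a1b, to 0.029 with library size alone and 0.10 with T cell marker scaling, and for Bcl2a1d, to 0.030 with T cell marker scaling. With each library left out it ranged from -0.39 to 1.15 for Bcl2, -1.37 to 0.44 for Bcl2a1b, -1.76 to 0.54 for Bcl2a1d, -0.88 to 2.21 for Bcl2l11, -2.01 to -0.95 for Bak1, -3.92 to -0.99 for Bbc3 and 0.51 (without replicate 3) to 5.43 (without replicate 4) for Pmaip1. The cause was not tested.

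By CPM without gene length, Mcl1 ranked 1, Bcl2 2, Bcl2l11 3, Bcl2a1b 4, Bcl2a1d 5, Bak1 6 and Bax 9. With each library left out, the TPM rank ran from 2 to 3 for Mcl1, 2 to 3 for Bcl2a1d and 4 to 6 for Bak1. The log2 ratio of survival over death was 1.65 with CPM and 0.83 without Bcl2a1b and Bcl2a1d, in place of 2.38. Members lower by over 1 log2 unit in both replicates 4 and 2 were 1 (Bcl2l11) with library size alone, against 4.77% of all genes. With T cell marker scaling 0 were lower, against 1.11% of all genes, and 4 were higher, against 43.4%. Replicates 1 and 3 alone, an alternative chosen after seeing the data, gave a mean of 429.6 CPM for Bcl2l11 in place of 262 and 179 for Bcl2a1d in place of 117. The log2 ratio of Pmaip1 over Mcl1 was then -6.10 in place of -4.60, that of Bcl2l11 over Bcl2 -0.25 in place of -0.81, and that of survival over death 2.82. The 4 libraries and a coefficient of variation of 0.976 limit what the tests can show, and depth limits Bbc3, with 2 to 23 counts per library.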
